A study of Jaltomata procumbens and Jaltomata herrerae with 23 samples.

Results

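Carbonic anhydrases of the beta and alpha classes were described in flowers and foliage of Jaltomata herrerae and Jaltomata procumbens, 2 species of a genus related to tomato. The tissues were the floral nectary, the organ that secretes nectar, and the leaf. The enzymes were found by Arabidopsis locus: BCA1, BCA2, BCA3, BCA4, BCA5 and BCA6 of the beta class, and ACA1, ACA2, ACA4 and ACA7 of the alpha class. Of these 10 loci, 6 had a row among the 13170 loci of the deposited expression table, and all 6 passed the filter on low values. They were BCA1 (AT3G01500), BCA2 (AT5G14740), BCA4 (AT1G70410), BCA5 (AT4G33580), ACA1 (AT3G52720) and ACA7 (AT1G08080). BCA3, BCA6, ACA2 and ACA4 had no row and were not analysed here.

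Carbonic anhydrases interconvert carbon dioxide and bicarbonate, and so act both on carbon supply and on pH. In Arabidopsis the beta forms work inside the cell, with BCA1 abundant in the chloroplast stroma of leaves and BCA4 at the plasma membrane. BCA1 and BCA4 also act in the response of guard cells to carbon dioxide. Alpha forms are mostly made with a signal for entry into the secretory pathway. In the red nectar of Nesocodon mauritianus, a plant of another family, a carbonic anhydrase has been connected with the alkaline pH of the nectar. The question addressed here is how such candidates for nectar pH compare with the photosynthetic forms of the leaf.

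Nectaries were dissected by hand from plants of both species grown in the same facility at 3 stages and set against fully expanded leaves. Pre-secretory nectaries were taken 24 to 48 hours before the flower opened, secretory nectaries at full opening 3 to 6 hours after dawn, and post-secretory nectaries once the petals had dropped. RNA was extracted from whole tissue pieces, so a change in the cells present and a change in RNA per cell cannot be told apart. The labels name no treatment, transgene or mutant, and do not say whether replicates are separate plants. The p-values then describe the spread among the libraries at hand, which may be technical. The tests used 20 libraries: 3 pre-secretory, 3 secretory, 3 post-secretory and 2 leaf libraries of J. herrerae, and 3, 2, 2 and 2 of J. procumbens.

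The 3 other J. procumbens libraries went against their labels and were left out. The library labelled pre-secretory A correlated over all loci at 0.463 with its own group and at 0.886 with J. herrerae leaf. The library labelled post-secretory A correlated at 0.823 with its own group and at 0.976 with the secretory group, and leaf A at 0.711 with leaf against 0.924 with the post-secretory group. Each carbonic anhydrase result that rests on them is given with and without these libraries where its call changed. Pre-secretory B, C and D of J. procumbens were kept, but they too correlated better with the secretory group, at 0.877, 0.955 and 0.818. With their own group, A included, they were at 0.794, 0.787 and 0.774. They held 16197, 26019 and 2904 TPM of SWEET9. Whether their stage labels are right was not tested, and the J. procumbens levels before secretion rest on them. Levels are given in TPM, the deposited unit of transcript abundance, which is corrected for transcript length and scaled to a fixed total per library. In the libraries kept, the summed level of 5 leaf photosynthesis markers was 57594 to 114456 TPM in leaves and 119 to 5900 TPM in nectaries. The sugar exporter SWEET9, a nectary marker, reached 396 to 36418 TPM in nectaries, but it was also at 218 and 424 TPM in the leaf libraries of J. herrerae, against 28 and 11 TPM in those of J. procumbens. Read depth is given in the labels only as a mean of at least 20 M reads per library. TPM allows comparison between genes per transcript length but keeps no depth, so no counting interval can be given for low values.

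ACA7, an alpha form, was the most abundant carbonic anhydrase in J. procumbens nectaries before and during secretion. Pre-secretory nectaries B, C and D held 5400, 6039 and 813 TPM, and secretory nectaries A and B held 3992 and 5762 TPM. Post-secretory nectaries B and C held 606 and 124 TPM, and leaves B and C held 10 and 4 TPM. All 7 nectary libraries thus lay above both leaf libraries, and the 2 post-secretory libraries lay below all others of the nectary. By mean TPM, ACA7 was 8th of the 13170 loci in pre-secretory nectaries, 12th in secretory nectaries, 289th in post-secretory nectaries and 8166th in leaves. It made up 95.2% to 99.5% of the summed TPM of the 6 carbonic anhydrases in each pre-secretory and secretory library. That share was 76.2% and 14.3% in post-secretory nectaries B and C, and 0.388% and 0.234% in leaves B and C.

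In J. herrerae, ACA7 varied widely between libraries of the same label. It was listed at 0, 0 and 6 TPM in pre-secretory nectaries A, B and C, and at 0, 470 and 117 TPM in secretory nectaries A, B and C. Post-secretory nectaries A, B and C held 20, 101 and 770 TPM, and leaves A and B held 1 and 3 TPM. The secretory libraries overlapped both the pre-secretory and the leaf libraries through the single library at 0. ACA7 made up 0%, 95.9% and 84.8% of the summed carbonic anhydrase TPM in secretory nectaries A, B and C, and 25%, 56.4% and 92.4% in post-secretory nectaries A, B and C. The stage at which ACA7 was abundant therefore included the post-secretory nectary in J. herrerae, where its mean of 297 ± 412 TPM (SD, n = 3) stood beside 196 ± 245 TPM (SD, n = 3) in secretory nectaries.

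**Figure D1:**
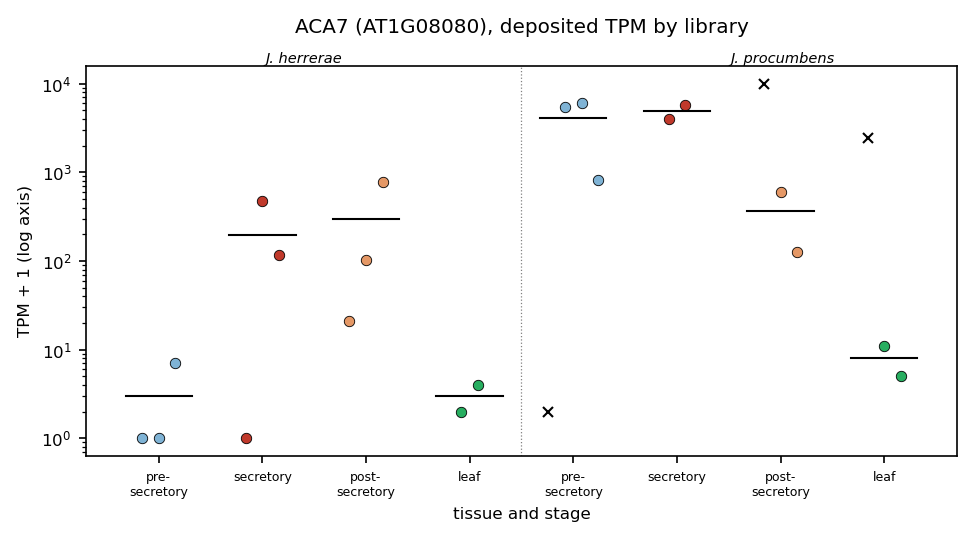
ACA7 in each library, as deposited TPM + 1 on a log axis, by tissue and stage, with J. herrerae on the left and J. procumbens on the right. Circles are libraries in the tests, horizontal lines are their means and crosses are the 3 J. procumbens libraries left out; the 5 pre-secretory and secretory circles of J. procumbens sit between 813 and 6039 TPM, above every circle of J. herrerae.

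Levels were tested as log2(rescaled TPM + 1), where rescaling divides each library by its median ratio to a typical library, and a gene was called at an adjusted p under 0.05 in limma with Benjamini-Hochberg adjustment over 13075 loci. A difference on this scale understates the change of genes with low TPM. In J. procumbens, ACA7 was higher in secretory nectary than in leaf by 8.92 (SE 2.30, adjusted p = 0.00355), and with all 23 libraries by 6.38 (adjusted p = 0.141). It was lower in J. herrerae than in J. procumbens in pre-secretory nectary (log2 difference -9.94, SE 1.88, limma adjusted p = 0.000446), and with all 23 libraries the difference was -7.49 (adjusted p = 0.0583). Both calls held when any 1 library of the groups compared was left out.

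In secretory nectaries ACA7 was lower in J. herrerae than in J. procumbens (log2 difference -6.09, SE 2.10, limma adjusted p = 0.0254), a call that rested on few libraries. Without J. herrerae secretory nectary A the difference was -3.17 (adjusted p = 0.0896), and without J. procumbens secretory nectary A or B the adjusted p was 0.0857 or 0.114. The adjusted p was 0.177 with all 23 libraries, 0.0538 with a pseudocount of 0.1 and 0.153 with only these groups in the fit. The rescaled values of J. procumbens secretory nectaries, 3240 and 4654, lay above those of J. herrerae, whose highest was 705.4. In post-secretory nectaries the difference of J. herrerae from J. procumbens was -0.67 (95% interval -5.15 to 3.80, limma adjusted p = 0.819), and the libraries overlapped. After rescaling, J. procumbens pre-secretory nectary D was at 504.7, below J. herrerae secretory nectary B at 705.4 and post-secretory nectary C at 640.1.

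The stage changes of ACA7 did not pass the test in either species. In J. herrerae the secretory level differed from the pre-secretory level by 4.78 (SE 1.88, limma adjusted p = 0.0626) and from leaf by 4.07 (SE 2.10, adjusted p = 0.111). Without secretory nectary A, the library at 0, these became 7.72 (adjusted p = 0.000853) and 7.01 (adjusted p = 0.000944). Without secretory nectary B, the highest of that group, they became 2.97 (adjusted p = 0.279) and 2.26 (adjusted p = 0.388). Without pre-secretory nectary C the first was 5.85 (adjusted p = 0.0493). In J. procumbens the secretory level differed from the pre-secretory level by 0.93 (SE 2.10, limma adjusted p = 0.785). The post-secretory level differed from the secretory level by -4.52 (SE 2.30, limma adjusted p = 0.136), although the libraries did not overlap. With only those groups in the fit, that adjusted p was 0.0329.

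**Figure D2:**
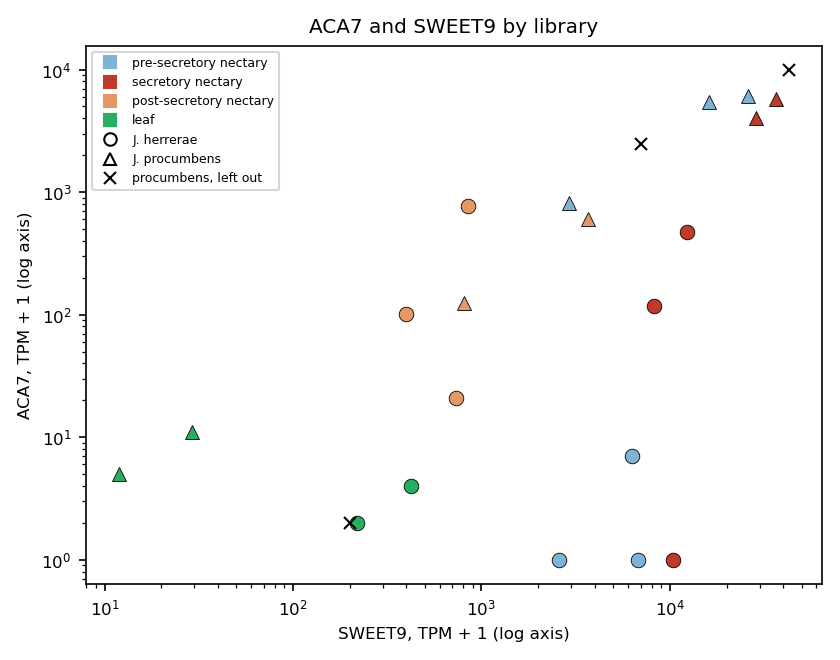
ACA7 against SWEET9 in each library, both as deposited TPM + 1 on log axes, with stage by colour and species by symbol; crosses are the J. procumbens libraries left out. The J. procumbens points climb together along both axes, whereas J. herrerae pre-secretory nectaries A and B and secretory nectary A sit at 0 TPM of ACA7 with 2578, 6740 and 10399 TPM of SWEET9.

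Set against SWEET9, which exports sucrose from nectary cells, ACA7 had a narrower range of ratios in the nectaries of J. procumbens than in those of J. herrerae. There were 333, 232 and 280 TPM of ACA7 per 1000 TPM of SWEET9 in J. procumbens pre-secretory nectaries B, C and D. The ratio was 140 and 158 in secretory nectaries A and B, and 166 and 154 in post-secretory nectaries B and C. In leaves B and C it was 357 and 364, from 10 and 4 TPM of ACA7. Over the nectaries the ratio thus stayed between 140 and 333 while ACA7 itself ranged from 124 to 6039 TPM. In J. herrerae the ratio was 0, 0 and 0.955 in pre-secretory nectaries A, B and C, 0, 38.2 and 14.1 in secretory nectaries A, B and C, and 27.4, 255 and 906 in post-secretory nectaries A, B and C. SWEET9 was at 396 to 850 TPM in the post-secretory nectaries of J. herrerae and at 8289 to 12296 TPM in its secretory nectaries, while ACA7 was at 20 to 770 TPM and 0 to 470 TPM. The library labelled J. procumbens pre-secretory A had a ratio of 4.98, and those labelled post-secretory A and leaf A had 233 and 347.

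ACA1, an alpha form that reaches the chloroplast through the secretory pathway in Arabidopsis, was a leaf gene in both species. Leaves A and B of J. herrerae held 34 and 125 TPM and leaves B and C of J. procumbens held 9 and 13 TPM. No nectary library kept in the tests held more than 3 TPM. The leaf libraries of both species thus lay above every nectary library. ACA1 was lower in secretory nectary than in leaf, with a log2 difference of -4.75 in J. herrerae (SE 0.49, limma adjusted p = 8.23e-07) and -3.26 in J. procumbens (SE 0.53, adjusted p = 9.28e-05). With all 23 libraries the second adjusted p was 0.245. In leaves it was higher in J. herrerae by 2.74 (SE 0.53, limma adjusted p = 0.000779), and the adjusted p was 0.0875 with all 23 libraries. Its call in secretory nectaries, 1.25 higher in J. herrerae (SE 0.49, limma adjusted p = 0.044), rested on levels of 0 to 2 TPM. That call was lost without J. herrerae secretory nectary C (adjusted p = 0.161) or J. procumbens secretory nectary B (0.322), without rescaling (0.177), with only these groups in the fit (0.0958) and with all 23 libraries (0.584).

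BCA1, the abundant stromal beta form, was the leading carbonic anhydrase of leaves. Leaves A and B of J. herrerae held 1348 and 1177 TPM, and leaves B and C of J. procumbens held 2402 and 1598 TPM, which made it 51st and 24th of all loci by mean. Nectaries of J. herrerae held 22, 0 and 69 TPM before secretion, 4, 10 and 9 TPM during it and 5, 47 and 19 TPM after it. Those of J. procumbens held 3, 5 and 0 TPM, then 18 and 13 TPM, then 69 and 661 TPM in post-secretory nectaries B and C. Every nectary library thus lay below every leaf library, and J. procumbens post-secretory nectary C came nearest to leaf. BCA1 was lower in secretory nectary than in leaf, with a log2 difference of -6.97 in J. herrerae (SE 1.44, limma adjusted p = 0.00066) and -7.33 in J. procumbens (SE 1.57, adjusted p = 0.000915). With all 23 libraries the second became -5.61 (adjusted p = 0.102).

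No stage change of BCA1 passed the test. The largest, from secretory to post-secretory nectary of J. procumbens, was 3.30 (95% interval -0.05 to 6.65, limma adjusted p = 0.112), and without rescaling it was 3.72 (adjusted p = 0.047). Without J. procumbens post-secretory nectary C, the library at 661 TPM, it was 1.67 (adjusted p = 0.551). In post-secretory nectaries the difference of J. herrerae from J. procumbens was -3.03 (SE 1.44, limma adjusted p = 0.0954), without rescaling it was -3.59 (adjusted p = 0.0257), and without J. procumbens post-secretory nectary C it was -1.40 (adjusted p = 0.545). In leaves that difference was -0.39 (95% interval -3.74 to 2.96, limma adjusted p = 0.874).

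Leaf markers moved with BCA1 in some nectary libraries. J. herrerae pre-secretory nectaries A, B and C held 789, 36 and 3718 TPM of RBCS1A, a small subunit of Rubisco, beside 22, 0 and 69 TPM of BCA1. Per 1000 TPM of RBCS1A, BCA1 was at 27.9, 0 and 18.6 TPM in these libraries, and at 24 and 13.6 TPM in J. herrerae leaves A and B. Library C of that group thus lay within the ratio of the leaves and library A just above it. The ratio was 80, 111 and 107 in secretory nectaries A, B and C of J. herrerae, and 14, 16.8 and 32.4 in its post-secretory nectaries A, B and C. In J. procumbens it was 59.1 and 59.9 in leaves B and C, 175 and 1300 in secretory nectaries A and B, and 413 and 2520 in post-secretory nectaries B and C. The secretory nectaries of both species thus held more BCA1 for their RBCS1A than leaves of their species did. So did the post-secretory nectaries of J. procumbens, and post-secretory nectary C of J. herrerae. Pre-secretory nectaries B, C and D of J. procumbens were at 42.9, 125 and 0, on both sides of its leaves. The secretory ratios rest on only 4 to 18 TPM of BCA1 and 10 to 103 TPM of RBCS1A, rounded to whole numbers. The part of leaf tissue in these values was not tested.

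**Figure D3:**
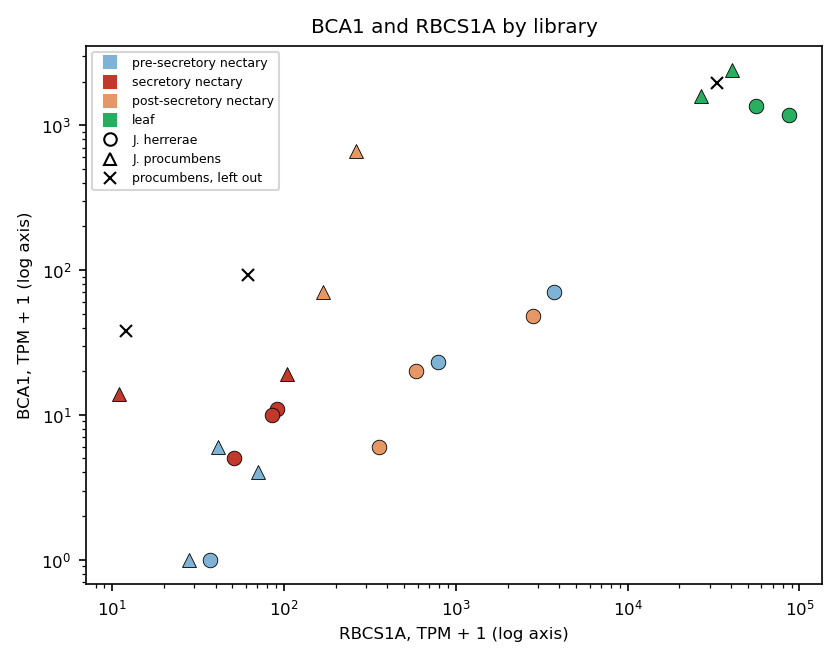
BCA1 against the Rubisco small subunit gene RBCS1A in each library, both as deposited TPM + 1 on log axes, with stage by colour and species by symbol; crosses are the J. procumbens libraries left out. Leaves sit at the upper right, with 1177 to 2402 TPM of BCA1, and the post-secretory nectary of J. procumbens with 661 TPM of BCA1 stands above the other nectaries at 262 TPM of RBCS1A.

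BCA2, a cytosolic beta form close in sequence to BCA1, was near 0 throughout. Its highest group mean was in leaves of J. procumbens, where B and C held 9 and 5 TPM, and it was listed at 0 in all 5 pre-secretory and secretory libraries of that species. In J. herrerae it ranged from 0 to 8 TPM over all 11 libraries, and leaves A and B held 0 and 3 TPM. Its call in J. procumbens secretory nectary against leaf (limma adjusted p = 0.0189) was lost without secretory nectary A or B (adjusted p = 0.0676 and 0.0662), without leaf B (0.0878) and with all 23 libraries (0.17). Since BCA1 and BCA2 are close copies, their transcripts may have been divided differently between the 2 rows in each species. Summed over both rows, leaves held 1180 to 2411 TPM, close to BCA1 alone because BCA2 was at 0 to 9 TPM there. That sum cannot show whether transcripts of BCA2 were placed in the row of BCA1.

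BCA4, the plasma membrane beta form, was a leaf gene that was also raised in nectaries after secretion. Leaves A and B of J. herrerae held 114 and 144 TPM, and leaves B and C of J. procumbens held 126 and 67 TPM. Nectaries of J. herrerae held 4, 11 and 11 TPM before secretion, 2, 2 and 2 TPM during it, and 37, 15 and 17 TPM after it. Those of J. procumbens held 6, 5 and 8 TPM, then 5 and 5 TPM, then 83 and 59 TPM. In both species the post-secretory libraries lay above all earlier ones in deposited TPM. After rescaling, J. herrerae post-secretory nectaries B and C, at 13.42 and 14.13, lay below its pre-secretory nectary C at 14.58. Post-secretory against pre-secretory nectary was not tested. The post-secretory libraries lay below both leaves in J. herrerae, while in deposited TPM J. procumbens post-secretory nectary B overlapped the leaves. The secretory level was lower than that of leaf, with a log2 difference of -5.26 in J. herrerae (SE 0.37, limma adjusted p = 2.24e-08) and -4.33 in J. procumbens (SE 0.40, adjusted p = 4.81e-07). Both calls held with all 23 libraries (adjusted p = 0.00364 and 0.0313).

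From secretory to post-secretory nectary BCA4 rose by 2.19 in J. herrerae (SE 0.33, limma adjusted p = 4.85e-05) and by 3.12 in J. procumbens (SE 0.40, adjusted p = 5.94e-05). With all 23 libraries these were 2.21 (adjusted p = 0.123) and 2.13 (adjusted p = 0.463). In J. herrerae it fell by 1.28 from pre-secretory to secretory nectary (SE 0.33, limma adjusted p = 0.00765), whereas in J. procumbens the difference was -0.06 (95% interval -0.84 to 0.73). The species difference in that change was -1.23 (SE 0.49, limma adjusted p = 0.109). The fall in J. herrerae was not called without pre-secretory nectaries A and C, the 2 with more RBCS1A, and post-secretory nectary B (adjusted p = 0.0813), or with all 23 libraries (0.536).

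Some photosynthesis genes rose with BCA4 after secretion, 3 of the 5 leaf markers in J. herrerae and 2 of 5 in J. procumbens. Of all loci, 32.9% and 21.4% were called higher in these comparisons, and 58.4% and 38.3% were called in either direction. LHCB1.1, a chlorophyll-binding protein of the light harvesting complex, rose from secretory to post-secretory nectary by 4.96 in J. herrerae (SE 0.63, limma adjusted p = 1.14e-05). Its rise in J. procumbens was 3.68 (SE 0.77, limma adjusted p = 0.00184). PSBP1, of photosystem II, rose by 4.51 in J. herrerae (SE 0.41, limma adjusted p = 7.95e-07) and by 3.21 in J. procumbens (SE 0.50, adjusted p = 0.000237). The calls of both genes in J. procumbens were lost with all 23 libraries. RBCS1A and the Rubisco activase gene RCA were not called in either species, and RBCS3B rose in J. herrerae by 2.53 (SE 0.57, limma adjusted p = 0.00134) and was not called in J. procumbens. Summed over the 5 markers, post-secretory nectaries held 1933 to 5900 TPM in J. herrerae and 1560 to 2332 TPM in J. procumbens, against 119 to 321 TPM in secretory nectaries. Whether green tissue accounts for the rise of BCA4 was not tested. The anion channel SLAC1, a defining gene of guard cells, was listed at 0 in every nectary library in the tests and at 3 to 6 TPM in leaves. Summed over the 4 guard cell markers in the table, of 5 listed, post-secretory nectaries held 22 to 53 TPM and secretory nectaries 38 to 172 TPM. Pre-secretory nectaries held 42 to 133 TPM and leaves 20 to 48 TPM, so the sum did not follow SLAC1.

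BCA4 differed between the species in 2 nectary stages, in opposite directions. Its difference of J. herrerae from J. procumbens was 1.02 before secretion (SE 0.33, limma adjusted p = 0.018) and -1.13 after it (SE 0.37, adjusted p = 0.02). The first was lost without J. herrerae pre-secretory nectary C (adjusted p = 0.0979), and it was 0.31 without rescaling (0.471) and -0.31 with all 23 libraries (0.875). The second was lost without J. herrerae post-secretory nectary B or C (adjusted p = 0.0839 and 0.0768), without J. procumbens post-secretory nectary B (0.161), with only these groups in the fit (0.0956) and with all 23 libraries (0.95). Without J. herrerae pre-secretory nectaries A and C and post-secretory nectary B, which held more leaf marker RNA, neither was called (adjusted p = 0.121 and 0.0722). In secretory nectaries it was -0.21 (limma adjusted p = 0.681), and without rescaling it was called lower in J. herrerae (adjusted p = 0.0406).

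BCA5, a plastid beta form, had the flattest profile and was at its lowest during secretion in both species. It was at 18, 44 and 17 TPM before secretion, 8, 7 and 6 TPM during it and 16, 15 and 18 TPM after it in J. herrerae, with 21 and 22 TPM in leaves. In J. procumbens it was at 27, 18 and 30 TPM, then 10 and 9 TPM, then 36 and 24 TPM, with 20 and 22 TPM in leaves. No secretory library overlapped any library of another tissue or stage of its own species. It fell from pre-secretory to secretory nectary by 1.25 in J. herrerae (SE 0.19, limma adjusted p = 0.000218) and by 1.03 in J. procumbens (SE 0.21, adjusted p = 0.00266). The log2 difference of secretory nectary from leaf was -1.19 in J. herrerae (SE 0.21, limma adjusted p = 0.000191) and -1.47 in J. procumbens (SE 0.23, adjusted p = 7.14e-05).

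After secretion BCA5 rose in J. procumbens by 1.13 (SE 0.23, limma adjusted p = 0.0016), and in J. herrerae the difference was 0.30 (SE 0.19, adjusted p = 0.193). Without rescaling, the difference in J. herrerae was 1.12 (adjusted p = 0.00393), and the species difference in the change was -0.83 (SE 0.30, limma adjusted p = 0.0617) with it. With all 23 libraries the fall in J. herrerae and both differences from leaf kept their calls (adjusted p = 0.018, 0.0137 and 0.0244), while the fall in J. procumbens had an adjusted p of 0.0502 and the rise after secretion one of 0.405. With only its groups in the fit, the fall in J. procumbens had an adjusted p of 0.0556. BCA5 was called higher in J. herrerae than in J. procumbens before secretion, by 0.77 (SE 0.19, limma adjusted p = 0.0036), and during secretion, by 0.55 (SE 0.21, adjusted p = 0.0439). Without rescaling these were -0.03 and -0.40, so the species order of BCA5 depends on the scale, and with all 23 libraries neither was called (adjusted p = 0.18 and 0.272). The call during secretion was also lost without J. herrerae secretory nectary A or C (adjusted p = 0.0642 and 0.119) and without J. procumbens secretory nectary A or B (0.0986 and 0.203).

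**Figure D4:**
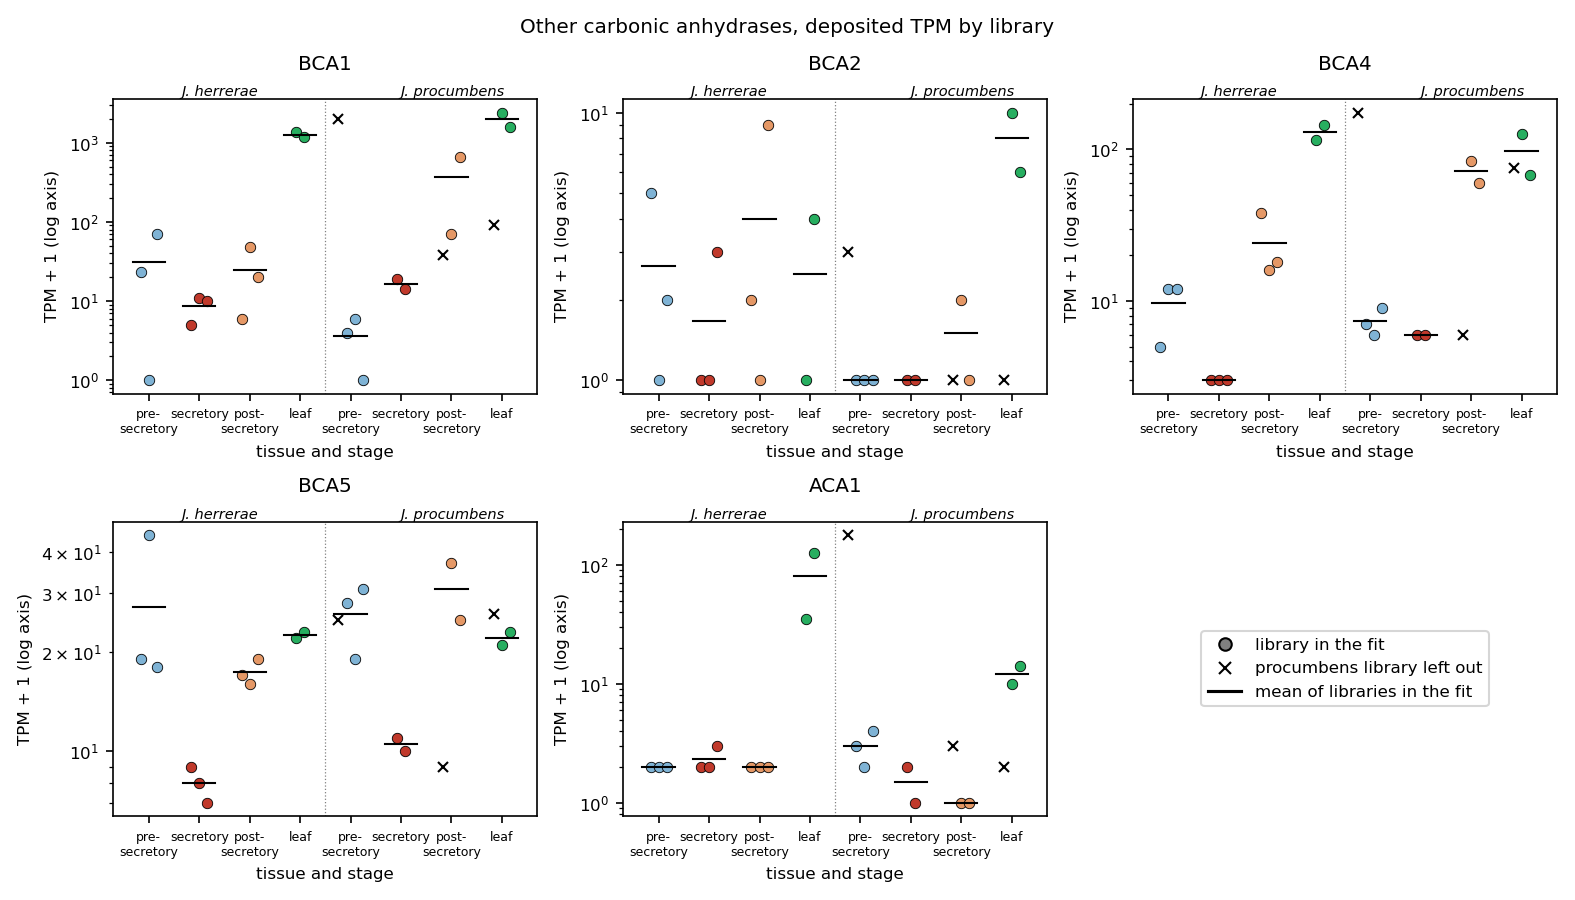
The other 5 carbonic anhydrases in each library, as deposited TPM + 1 on log axes with a range of their own in each panel, by tissue and stage, with J. herrerae on the left of each panel and J. procumbens on the right. Circles are libraries in the tests, lines are means and crosses are libraries left out; BCA1, BCA4 and ACA1 peak in leaves, BCA4 is also above its earlier levels in post-secretory nectaries, and BCA5 is lowest in secretory nectaries, at 6 to 10 TPM.

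Counted by comparison, the carbonic anhydrases differed most often between secretory nectary and leaf. So did loci in general in J. procumbens. In J. herrerae slightly more loci were called from secretory to post-secretory nectary (58.4%) than against leaf (57.8%). Between secretory nectary and leaf, 4 of 6 members were called in J. herrerae, all lower, against 57.8% of all loci tested. In J. procumbens 6 of 6 were called, 5 lower and ACA7 higher, against 59.5%. Of all loci, 33.1% were called lower than leaf in J. herrerae and 32.6% in J. procumbens. The median difference of the 6 was -2.97 in J. herrerae and -3.16 in J. procumbens, beside -0.06 and -0.03 over all loci. From pre-secretory to secretory nectary 2 of 6 were called in J. herrerae, against 33.5% of all loci, and 1 of 6 in J. procumbens, against 35.6%. From secretory to post-secretory nectary it was 1 of 6 against 58.4% in J. herrerae and 2 of 6 against 38.3% in J. procumbens. The shares in these 4 stage comparisons were near or below those of all loci.

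Between species, 3 of 6 were called in pre-secretory nectary against 48.4% of all loci, and 3 of 6 in secretory nectary against 48.5%. It was 1 of 6 in post-secretory nectary against 46.6%, and 1 of 6 in leaf against 39%. For the species difference in each change, limma called 0 of 6 for secretory against pre-secretory nectary, where 13.3% of all loci were called. It called 0 of 6 for post-secretory against secretory nectary, where 20.8% were called, and 0 of 6 for secretory nectary against leaf, where 30.5% were called. At an unadjusted p under 0.05, 1, 1 and 0 of 6 passed, respectively, BCA4 in the first and BCA5 in the second. The differences for ACA7 had wide intervals: 3.85 (95% interval -2.16 to 9.85), 5.42 (-0.91 to 11.8) and -4.85 (-11.5 to 1.79). A species difference in the stage profile of ACA7 was not detectable with these libraries.

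**Figure D5:**
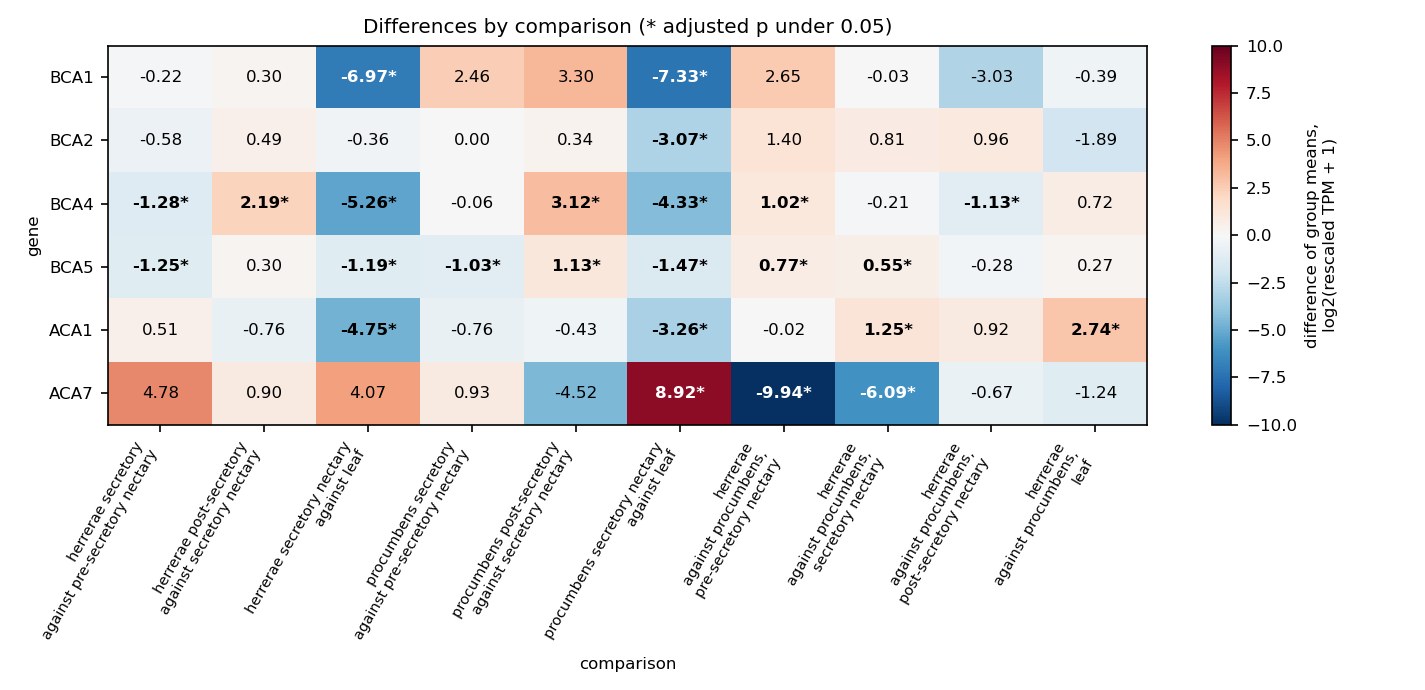
Differences of group means of log2(rescaled TPM + 1) for the 6 carbonic anhydrases (rows) in the 10 comparisons within and between species (columns), with red for higher and blue for lower in the group named first; an asterisk marks an adjusted p under 0.05 in limma. ACA7 has the largest values, 8.92 against leaf in J. procumbens and -9.94 between species before secretion; the value for BCA2 against leaf in J. procumbens is set against a group listed at 0 and is no fold.

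Ordered by mean rescaled TPM, the groups fell into different sequences for each gene. For ACA7 the order was J. procumbens secretory (3947), J. procumbens pre-secretory (2915), J. herrerae secretory (321.8), J. herrerae post-secretory (249.9) and J. procumbens post-secretory nectary (221.8). Each of the first 4 overlapped the next, and all others, from J. procumbens leaf at 7.40 down, were lower, with a gap between post-secretory nectary and leaf of J. procumbens. For BCA1 the leaves of J. procumbens (2162) and J. herrerae (1639) came first without overlap, followed by J. procumbens post-secretory nectary (224.9). For BCA4 the order began with J. herrerae leaf (169.2), J. procumbens leaf (103.3), J. procumbens post-secretory nectary (43.34) and J. herrerae post-secretory nectary (21.12), of which none overlapped the one named before it. BCA5 ran only from 29.65 in J. herrerae pre-secretory nectary to 7.69 in J. procumbens secretory nectary, and its 6 highest groups overlapped in sequence.

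The loci whose levels most resembled each gene were sought by Pearson correlation of log2(rescaled TPM + 1) over the 20 libraries, which share groups and species, so the values are descriptions. ACA7 was most like AT5G05730 (r = 0.948) and AT3G62730 (r = 0.943). Among the listed genes it was most like the alpha form ACA8 (r = 0.754). AT5G05730 was at 66 and 70 TPM in J. herrerae secretory nectary B and post-secretory nectary C, the libraries with 470 and 770 TPM of ACA7, and at 2 TPM in secretory nectary A. BCA1 was most like AT1G60950 (r = 0.952) and AT3G45070 (r = 0.936), and among listed genes like the Rubisco gene RBCS3B (r = 0.9). BCA4 was most like AT4G03230 (r = 0.969) and AT5G67090 (r = 0.968), and among listed genes like PSBP1 (r = 0.952). ACA1 was most like AT4G00050 and AT5G02600 (both r = 0.936), and among listed genes like SLAC1 (r = 0.883).

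Of 4 other alpha forms, ACA5 and ACA8 had rows, and each was measured in 1 species. ACA5 was at 1 to 17 TPM in the nectaries of J. herrerae and at 3 and 6 TPM in its leaves, and was listed at 0 in every J. procumbens library in the tests. ACA8 was at 28, 16 and 8 TPM in pre-secretory, 17 and 67 TPM in secretory and 3 and 1 TPM in post-secretory nectaries of J. procumbens. It was listed at 0 in both its leaves and in every J. herrerae library. From secretory to post-secretory nectary of J. procumbens ACA8 fell by 3.74 (SE 0.52, limma adjusted p = 0.000103). It rose from pre-secretory to secretory nectary there by 1.30 (SE 0.48, limma adjusted p = 0.0455), a call lost without rescaling (0.102). Neither change was called with all 23 libraries (adjusted p = 0.413 and 0.232). ACA5, ACA7 and ACA8 are close relatives, so transcripts of 1 Jaltomata gene could have been placed in different rows in each species. Summed over the 3 rows, pre-secretory nectaries held 1, 9 and 9 TPM in J. herrerae and 5428, 6055 and 821 TPM in J. procumbens. The species difference thus remained over these 3 rows. Transcripts placed at alpha forms without a row would be missing from the sum, so it cannot show how transcripts were placed.

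Gamma forms, which sit in complex I of the mitochondrial respiratory chain, had 2 of 5 listed loci in the table, GAMMACA1 and GAMMACAL2. GAMMACA1 was at 126, 378 and 263 TPM before, 149, 166 and 99 TPM during and 89, 93 and 122 TPM after secretion in J. herrerae, and at 66 and 74 TPM in leaves. In J. procumbens it was at 311, 261 and 329 TPM, 162 and 163 TPM, 97 and 99 TPM, and 92 and 89 TPM, respectively. In J. procumbens the stages before, during and after secretion thus did not overlap one another. Both gamma genes fell from secretory to post-secretory nectary in both species, GAMMACA1 by 1.32 in J. herrerae (SE 0.16, limma adjusted p = 8.58e-06) and by 1.12 in J. procumbens (SE 0.20, adjusted p = 0.000575). GAMMACAL2 fell by 0.78 (SE 0.26, limma adjusted p = 0.0171) and 1.47 (SE 0.32, adjusted p = 0.00219). None of these 4 calls held without rescaling, where GAMMACAL2 in J. herrerae was higher by 0.11, and with all 23 libraries only that of GAMMACA1 in J. herrerae did.

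Genes for enzymes that use bicarbonate, or for their subunits, were followed as the other side of the reaction, and all 9 listed had rows. The most abundant was CARA, the small subunit of carbamoyl phosphate synthetase. The large subunit of that enzyme, and not CARA, binds bicarbonate. In J. herrerae CARA was at 1171, 3078 and 2998 TPM before, 4517, 3956 and 2909 TPM during and 271, 210 and 140 TPM after secretion, with 105 and 141 TPM in leaves. In J. procumbens no library in the tests exceeded 242 TPM. CARA was higher in J. herrerae by 4.52 before secretion (SE 0.29, limma adjusted p = 3.96e-09) and by 6.54 during it (SE 0.33, adjusted p = 1.85e-10), and it fell by 5.12 after secretion in J. herrerae (SE 0.29, adjusted p = 1.55e-08). These 3 calls held with all 23 libraries and without rescaling. The large subunit gene CARB, at 3 to 7 TPM in secretory nectaries of both species, did not follow it and rose after secretion by 1.60 in J. herrerae (SE 0.30, limma adjusted p = 0.000314) and 1.36 in J. procumbens (SE 0.37, adjusted p = 0.00872). With all 23 libraries the second was not called (0.549).

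Among the other genes of enzymes that use bicarbonate, the plastid acetyl-CoA carboxylase genes CAC1, CAC2 and CAC3 were lower in secretory nectary than in leaf in both species. For CAC1 the log2 difference was -0.91 in J. herrerae (SE 0.17, limma adjusted p = 0.000298) and -2.17 in J. procumbens (SE 0.19, adjusted p = 2.46e-07). Without rescaling, CAC2 was not called in either species (adjusted p = 0.0715 and 0.0569) nor CAC3 in J. herrerae (0.0553), and with all 23 libraries none of the 3 was called in J. herrerae (0.198 to 0.26). PPC3, a phosphoenolpyruvate carboxylase, fell by 1.17 after secretion in J. herrerae (SE 0.17, limma adjusted p = 3.16e-05) and fell by 0.96 in J. procumbens (SE 0.20, adjusted p = 0.00204), calls lost without rescaling (0.522 and 0.345). The call in J. procumbens was also lost with all 23 libraries (0.611). PPC1, of the same family, was higher in J. herrerae than in J. procumbens before secretion by 2.47 (SE 0.41, limma adjusted p = 0.000153), at 12 to 18 TPM against 3 to 5 TPM. Over the 9 genes, 1 was higher and 4 were lower in secretory nectary than in leaf in each species. From pre-secretory to secretory nectary 1 was higher and 3 were lower in J. herrerae, and 0 and 4 in J. procumbens. From secretory to post-secretory nectary 1 was higher and 4 were lower in J. herrerae, and 2 and 1 in J. procumbens. All loci were called at 57.8% and 59.5% against leaf, 33.5% and 35.6% from pre-secretory to secretory nectary, and 58.4% and 38.3% after secretion, in J. herrerae and J. procumbens respectively. The median over the 9 in the comparisons with leaf was -0.06 in J. herrerae and -0.71 in J. procumbens, beside -0.06 and -0.03 over all loci.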

How the data were processed

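RNA-seq of nectary and leaf was read from a deposited table of 13170 Arabidopsis loci by 23 libraries, of 24 planned per the labels' protocols, from 150 bp paired-end reads. The authors' values are TPM rounded to whole numbers, treated here as a score since they are neither counts nor exact TPM; the columns sum to 542947 to 779099 TPM. Kallisto 0.46.1 is named in the submitters' processing notes. The sources used here do not give the reference, the match of Jaltomata transcripts to Arabidopsis loci or any summing of transcripts.

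Groups followed the labels. The 3 J. procumbens libraries named above were left out. Values were divided by median-ratio factors (0.45 to 1.65, over 9613 loci above 0 in all 20 libraries). A locus was tested where 2 or more libraries reached 1 TPM (13075 loci), as log2(value + 1) in limma 3.58.1 (R 4.3.3) with 1 mean for each of 8 groups, a trended prior variance and 12 residual degrees of freedom. Figures used matplotlib 3.10.9. The steps were tested on simulated data. Rescaling moved the median of all loci: without it, that median was -0.39, 0.86 and -0.36 for the J. herrerae stage and leaf comparisons, -0.17, 0.42 and 0.21 for J. procumbens, and -0.71, -0.84, -0.48 and -0.16 between species. With it, these medians lay between -0.06 and 0.13.

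The members and lists were chosen with earlier results of these data known. All members in the table were named, with related genes called in a comparison or highest in their list, and the 2 most similar loci for each member reaching 100 TPM. Alternatives were all 23 libraries, deposited TPM, a pseudocount of 0.1, no filter or a mean of 5 TPM, only the groups compared, a replicate block, and leaving out each library.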

Additional observations from a re-analysis of the deposited data

Results flagged for a closer look

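In the library labelled J. procumbens pre-secretory nectary A, 4 carbonic anhydrases were flagged as apart from the other 3 libraries of that label. ACA1 was at 177 TPM, BCA1 at 1966 TPM, BCA2 at 2 TPM and BCA4 at 174 TPM. Chance flags about 1 in 20 groups by this measure, and the library also stood apart over all loci.

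ACA7, the alpha form, was at 9917 TPM in the library labelled J. procumbens post-secretory nectary A and at 2446 TPM in the one labelled leaf A, both left out of the tests. The other leaves of that species held 10 and 4 TPM.

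No carbonic anhydrase of the 6 had a called species difference in a change, but related genes did. For CARA the change from pre-secretory to secretory nectary was greater in J. herrerae by 2.03, the difference from secretory to post-secretory nectary was -5.17, and that for secretory nectary against leaf was 6.01. The first was not called without rescaling (adjusted p = 0.0685) or with all 23 libraries (0.107). For ACC1, a cytosolic acetyl-CoA carboxylase, the difference from secretory to post-secretory nectary was -1.32, not called without rescaling (0.357). For secretory nectary against leaf it was 0.90 for GAMMACA1, 1.26 for CAC1, 0.88 for CAC2 and 1.36 for CAC3, and none of these 4 was called without rescaling. For ACA8 the fitted differences were 3.74 after secretion and -4.84 against leaf, but it was listed at 0 throughout J. herrerae, so they only restate its changes in J. procumbens.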

How the results depend on the processing

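Of 24 called results on the 6 genes, 18 held when any 1 library of the groups compared was left out and 7 held with all 23 libraries. With all 23, called members were 1 for J. herrerae secretory against pre-secretory nectary (2 in the report), 0 for post-secretory against secretory (1), 0 (1) and 0 (2) for these in J. procumbens, 2 (6) for its secretory nectary against leaf, and 0 between species in all 4 tissues (3, 3, 1 and 1); 0% to 35.8% of all loci were called, against 0.106% to 63.6% under the other settings. Without rescaling, counts were 2 for J. herrerae post-secretory against secretory, 1 and 2 between species in pre- and post-secretory nectary, and 1 for the species difference against leaf. With a pseudocount of 0.1, 2 were called for J. procumbens secretory against pre-secretory and 2 between species in post-secretory nectary. With only the groups compared, counts were 0 for J. procumbens secretory against pre-secretory, 1 between species in secretory nectary and 1 for the species difference after secretion.

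Leaving out 1 library gave 2 to 4 between species in pre-secretory nectary, 0 to 3 in secretory nectary, 0 to 1 in post-secretory nectary, and 0 to 1 for each of the 3 species differences in a change. Without J. herrerae pre-secretory nectaries A and C and post-secretory nectary B, chosen after seeing the data, 2 were called for J. procumbens secretory against pre-secretory, and BCA1 for the same change in J. herrerae was 3.77 (adjusted p = 0.0415, from 1 pre-secretory library) in place of -0.22.

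Signs turned for BCA4 between species before secretion with all 23 libraries (-0.31). Without rescaling they turned for BCA5 between species (-0.033 before and -0.40 during secretion), GAMMACA1 (-0.36 and -0.27) and GAMMACAL2 after secretion in J. herrerae (0.11). The cause was not tested.

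Replicate letters do not pair the samples: over 24 same-letter pairs the correlation of deviations was -0.355 to 0.141, 3 were above 0.1, and 1 of 9 J. herrerae nectary libraries correlated best with its own letter. With a replicate block by letter, 1 member, ACA7, was called for the species difference against leaf (adjusted p = 0.047), and ACA7 was called for secretory against pre-secretory nectary in J. herrerae (0.0251) and post-secretory against secretory in J. procumbens (0.0186). Rounding and unknown depth limit BCA2, ACA1 in nectaries and ACA8 most.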

Other observations

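Some other loci shared the contrast of ACA7 between J. procumbens and J. herrerae secretory nectary A. Chosen after the values were seen, 8 loci had a mean of at least 500 TPM over the pre-secretory and secretory libraries of J. procumbens and at most 2 TPM in J. herrerae secretory nectary A, ACA7 among them. Of the 7 others, 3 were listed at 0 in every J. herrerae nectary library, among them AT2G14900 with a mean of 14040 TPM in J. procumbens. ACA7 was not of that kind, since it reached 770 TPM in a J. herrerae nectary.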
